A study of Mus musculus with 10 samples.

Results

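The mitosis and spindle genes are a list of 37 genes that encode mitotic kinases and cyclins, checkpoint proteins, kinetochore subunits, spindle motors and cytokinesis proteins. The list was drawn up by function with earlier results of these data known, and all 37 were found among the 22713 gene IDs measured in mouse embryonic stem (ES) cells by mRNA-seq. In Pontinf/f; CreER ES cells, 4-hydroxy tamoxifen (OHT) activates a Cre recombinase that deletes the floxed Pontin alleles, and 1 library each was made without OHT (WT), at 3 days (OHT 3D) and at 4 days of OHT (OHT 4D). The WT library had no OHT, and the study places it at the start of treatment. The agent, the time since its addition and the deletion therefore cannot be told apart. In ZHBTc4 ES cells, tetracycline (Tc) shuts off Oct4, and 1 library was made after 2 days (Tc 2D). ZHBTc4 ES cells carrying a pLKO lentivirus for 4 days gave 2 control libraries and 2 in which the shRNA targeted linc1253, a long intergenic non-coding RNA. ChIP-seq of untreated ZHBTc4 cells with antibodies to Pontin and to GFP (the control antibody) gave 1 library each. The study used the WT library as the control of Tc 2D as well, so that the cell line and the Oct4 depletion cannot be told apart in that comparison.

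Entry into mitosis depends on the kinase CDK1 bound to cyclin A or B, which the CDC25 phosphatases switch on and to which Polo and Aurora kinases add their own signals. The chromosomes are then attached to the spindle at their kinetochores. The spindle assembly checkpoint holds back the anaphase-promoting complex until every chromosome is attached, after which cyclin B and securin are destroyed, the sister chromatids separate and the cell divides. Most of these genes are transcribed late in the cell cycle. Their promoters are known for CCAAT boxes, bound by the factor NF-Y, and for the cell cycle genes homology region (CHR), bound by the DREAM and B-MYB-MuvB complexes. Mouse ES cells divide fast, and these mRNAs are abundant in them. In a bulk sample, fewer dividing cells and less mRNA per dividing cell cannot be told apart.

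The promoters of the most highly expressed members with both elements are shown as examples of this architecture, which not all of the genes measured below have. Each runs from 250 bases before to 50 bases after the annotated start, in RefSeq coordinates of GRCm38.p6, which differ from those of NCBIM37 used for the expression values. Capitals mark CCAAT boxes (CCAAT, or ATTGG on the other strand) and CHR elements (TTTGAA, its reverse TTCAAA, or TTTAAA). Top2a lies at chr11:99024140-99024439 on the minus strand, Ccnb1 at chr13:100786437-100786736 on the minus strand, Bub1b at chr2:118597961-118598260 on the plus strand and Hmmr at chr11:40733388-40733687 on the minus strand.
Top2a: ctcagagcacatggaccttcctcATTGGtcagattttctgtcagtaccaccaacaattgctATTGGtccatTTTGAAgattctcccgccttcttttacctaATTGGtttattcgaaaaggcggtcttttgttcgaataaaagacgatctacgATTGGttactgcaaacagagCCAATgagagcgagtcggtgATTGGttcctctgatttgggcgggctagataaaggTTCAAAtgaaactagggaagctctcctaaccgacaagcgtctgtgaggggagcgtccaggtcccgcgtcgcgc
Ccnb1: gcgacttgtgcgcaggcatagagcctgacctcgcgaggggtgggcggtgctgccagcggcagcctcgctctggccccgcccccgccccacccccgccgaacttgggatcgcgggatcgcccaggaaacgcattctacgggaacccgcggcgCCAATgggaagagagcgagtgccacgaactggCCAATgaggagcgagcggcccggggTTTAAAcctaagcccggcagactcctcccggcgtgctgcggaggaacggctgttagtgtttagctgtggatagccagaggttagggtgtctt
Bub1b: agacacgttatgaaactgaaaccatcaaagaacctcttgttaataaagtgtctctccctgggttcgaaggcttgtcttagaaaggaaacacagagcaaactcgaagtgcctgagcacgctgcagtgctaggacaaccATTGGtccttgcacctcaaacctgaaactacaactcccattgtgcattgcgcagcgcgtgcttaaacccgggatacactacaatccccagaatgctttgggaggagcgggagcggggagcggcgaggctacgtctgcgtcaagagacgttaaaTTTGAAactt
Hmmr: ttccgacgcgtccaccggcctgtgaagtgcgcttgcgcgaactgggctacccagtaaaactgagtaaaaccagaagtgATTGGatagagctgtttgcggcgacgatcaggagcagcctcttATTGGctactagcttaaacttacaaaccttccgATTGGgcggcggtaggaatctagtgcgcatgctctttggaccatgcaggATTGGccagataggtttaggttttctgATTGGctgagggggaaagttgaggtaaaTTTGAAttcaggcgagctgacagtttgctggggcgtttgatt

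In Ccnb1, which encodes cyclin B1, 25 bases separated the start of a CCAAT box from the start of the CHR element after it, taking the nearest such pair in the window. The smallest spacing was 28 bases in Hmmr, 10 in Top2a and 153 in Bub1b. Of the 37 genes, 31 were found in the promoter table, and Tpx2, Aurkb, Ccna2, Cdc25c, Kif20a and Incenp were not. A CHR element in either orientation was present in 25 of the 31 (80.6%), against 27.6% of all 32851 promoter windows of the same length in the table. A CCAAT box was present in 23 (74.2%, against 37.4%), and 21 genes held both (67.7%, against 10.7%). With the window shortened to 150 bases before the start, 21 genes still held both, against 5.12% of all windows. When only the given strand was read, 11 held both, against 4.74%. At least 2 CCAAT boxes were found in 15 of the 31 and in 12.8% of the 21263 windows of protein-coding genes. The letters TTTCGCGC or TTTGGCGC, a form of the E2F site, were in the window of Cdk1 and of no other member, against 0.813% of all windows. Neither CHR nor CCAAT letters were found in these windows of Mad2l1, Pttg1, Nuf2 and Nusap1. CHR and CCAAT matches can share at most 1 base at their ends, and a match of letters does not show that a protein binds there.

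Values are CPM, read counts that the authors scaled by the TMM method, which uses library size and RNA composition, and deposited. They come from 17187595 to 37951742 reads on genes per library. All 37 genes passed the filter of a CPM above 1 in at least 1 library of a table, in both tables, and the lowest CPM of any member in any library was 21.6. The deleted gene, Pontin (Ruvbl1, ENSMUSG00000030079), measured 198 CPM in the WT library, 33.3 after 3 and 50.9 after 4 days of OHT. Its CPM was also lower at Tc 2D, at 85.0, than in WT and in the control shRNA libraries (166 and 186). This rests on 1 Oct4-depleted library, in which 25.8% of all genes tested were lower than in WT by more than 1.5-fold. By immunoblot and quantitative RT-PCR, the study found no significant difference in Pontin protein or mRNA after Oct4 depletion. Oct4 (Pou5f1, ENSMUSG00000024406) fell from 301 in WT to 21.1 at Tc 2D, where 9 of 10 ES cell markers were lower than in WT. Of 8 tested trophectoderm markers, 7 were higher there and 1 lower. In the WT library those ES cell markers summed to a CPM of 3635. The study grew ES cells either on fibroblast feeders or without them. Of 18 fibroblast markers tested, 17 were higher than in WT at each OHT time point. The summed CPM of the 20 fibroblast markers was 880 in the WT library, 1113 after 3 and 1164 after 4 days of OHT and 704 after Tc, with 1, 1, 0 and 5 of them at 0. Trophectoderm markers were higher than in WT for 5 of 8 at each OHT time point, and lower for 2 after 3 days and for 1 after 4 days. Their summed CPM over 9 markers was 242 in WT, 238 after 3 and 410 after 4 days of OHT and 513 after Tc. Primitive endoderm markers were higher for 2 of 7 after 3 days of OHT, for 5 after 4 days and for 4 after Tc, with sums over 8 markers of 207, 224, 226 and 335 in the same order. The part of RNA of these cell types in the differences below was not tested. The linc1253 transcript itself was not analysed here.

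**Figure D1:**
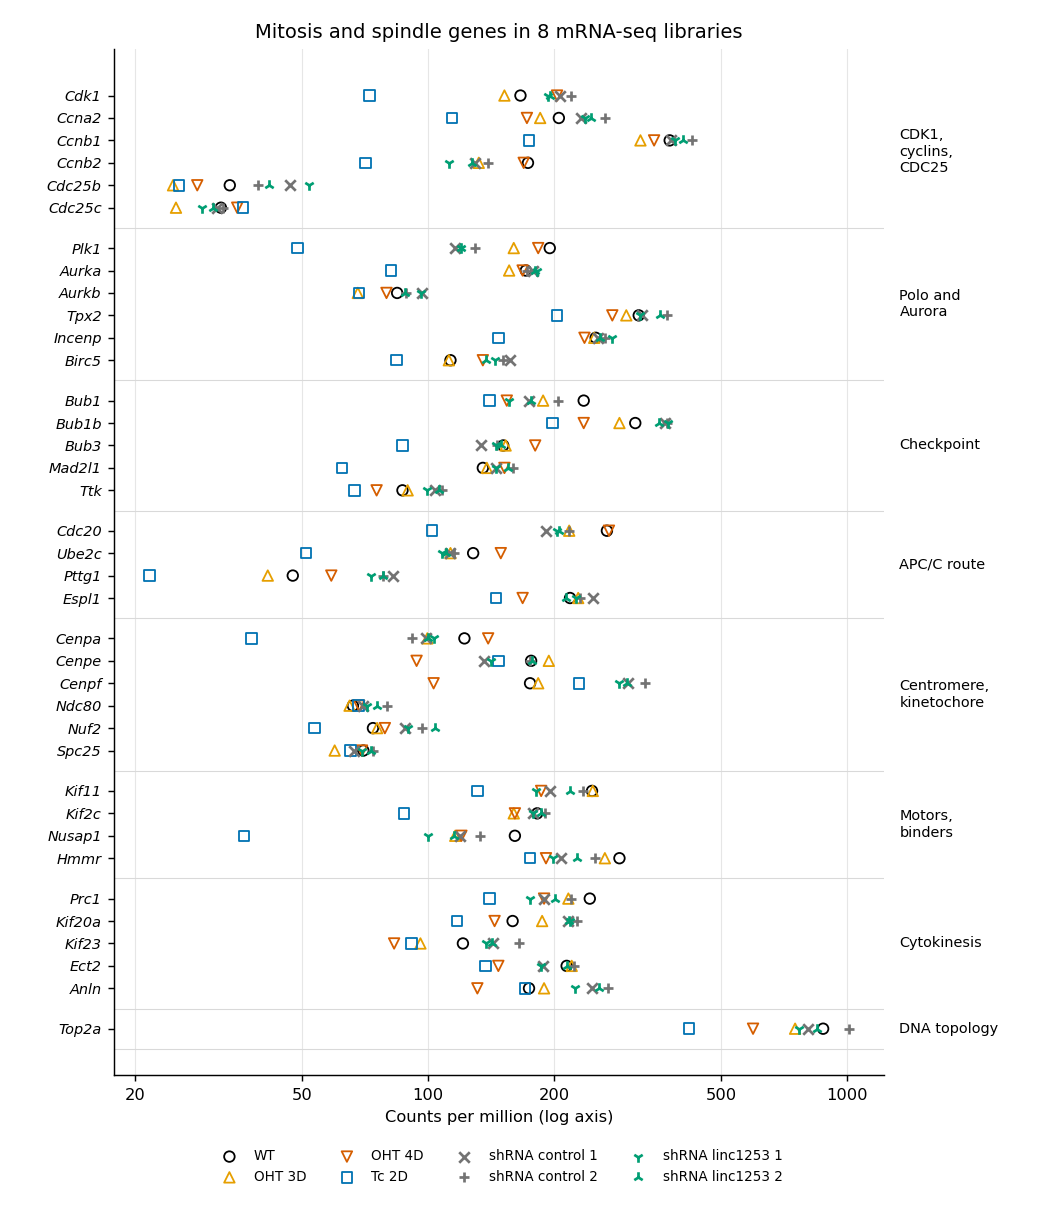
CPM (log axis) of the 37 mitosis and spindle genes, grouped by role, in each of the 8 mRNA libraries. Each mark is 1 library. The square of Tc 2D is the lowest of the 8 marks for 28 genes (75.7%, beside 35.7% of all genes), whereas the marks of the shRNA libraries lie close together.

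Per kilobase of exon, the levels in WT ranged from a CPM of 9.01 for Cdc25b to 143 for Cdc20, the activator of the anaphase-promoting complex. Ccnb2 (cyclin B2) followed at 112, Top2a, the topoisomerase that untangles sister chromatids, at 96.6, and Ccnb1 at 89.4. At the low end with Cdc25b stood the large kinetochore protein Cenpf at 15.4 and the phosphatase Cdc25c at 16.5. Cyclins A2, B1 and B2 each stood above both CDC25 phosphatases per length in this library.

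The 37 genes differed most from WT after Oct4 depletion. At Tc 2D, 24 of the 37 genes were lower than in WT by more than 0.58 on the log2(CPM + 1) scale (1.5-fold), and 0 were higher. Over all 13449 genes tested, 25.8% were lower and 23.9% were higher. Among the 5663 genes at or above the lowest member's WT level, 35.7% were lower. The median log2 difference was -0.74 for the members, -0.06 for all genes and -0.35 for the genes at that level. With 1 library per condition there is no replicate check, and the intervals below cover the counting of reads alone.

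Nusap1 (ENSMUSG00000027306, chr2:119444034-119476980, here and below in NCBIM37), whose product binds and bundles spindle microtubules, had the largest difference. Its CPM was 161 in WT and 36.3 at Tc 2D, beside 119 and 133 in the control shRNA libraries, 100 and 115 in the linc1253 libraries, and 116 and 120 after 3 and 4 days of OHT. The log2 difference at Tc 2D was -2.12 (95% interval -2.25 to -2.05), so that 22.5% of the WT level was left. Tc 2D was thus the lowest library and lay far from the other 7. A stretch of 4.24% of the exon length of Nusap1 overlaps Oip5 on the opposite strand, and strand was not stated to be used in counting.

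Plk1 (ENSMUSG00000030867, chr7:129302951-129313389), the Polo-like kinase needed for spindle poles and mitotic exit, measured 195 CPM in the WT library, 160 after 3 and 183 after 4 days of OHT, 48.8 after Tc, 116 and 129 with the control shRNA and 120 and 120 with the linc1253 shRNA. The log2 difference at Tc 2D was -1.98 (-2.09 to -1.91). On one scale WT differed by 0.84 from the ZHBTc4 control libraries, and Tc 2D by -1.12. Cenpa (ENSMUSG00000029177, chr5:30969150-30977200), the histone variant that marks the centromere, measured 122 CPM in the WT library, 99.5 after 3 and 139 after 4 days of OHT, 37.9 after Tc, 98.6 and 91.3 with the control shRNA and 103 and 99.6 with the linc1253 shRNA. Its log2 difference was -1.66 (-1.79 to -1.59), and Tc 2D was below every other library.

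All 4 genes of the anaphase-promoting complex route were lower at Tc 2D. Cdc20 (ENSMUSG00000006398, chr4:118105506-118109957) measured 267 CPM in the WT library, 217 after 3 and 270 after 4 days of OHT, 102 after Tc, 191 and 217 with the control shRNA and 203 and 205 with the linc1253 shRNA. Its log2 difference was -1.37 (-1.45 to -1.32). Ube2c, the ubiquitin-conjugating enzyme of the complex, had a difference of -1.31. The exons of Ube2c overlap Tnnc2 on the opposite strand over 22.8% of their length. Pttg1, which encodes securin, had a CPM of 47.5 in WT, 21.6 at Tc 2D and 82.6 and 78.0 with the control shRNA, a log2 difference of -1.10 from WT (-1.28 to -0.99). Securin inhibits separase, the protease that cuts cohesin. Separase itself, Espl1, stood just past the threshold, measuring 218 CPM in WT and 145 with Tc and a difference of -0.58 (-0.65 to -0.53).

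Of the 6 genes of the CDK1 group, the kinase and its 3 cyclins were lower and the phosphatases did not pass the threshold. Cdk1 (ENSMUSG00000019942, chr10:68799383-68815686) measured 166 CPM in the WT library, 152 after 3 and 203 after 4 days of OHT, 72.4 after Tc, 206 and 219 with the control shRNA and 193 and 195 with the linc1253 shRNA. Its difference at Tc 2D was -1.18 (-1.27 to -1.12). The differences were -1.27 for Ccnb2, -1.11 for Ccnb1 and -0.83 for Ccna2 (cyclin A2). Cdc25b differed by -0.39 and Cdc25c by 0.17 (0.03 to 0.31), measuring 32.0 CPM in WT and 36.1 with Tc. Reads of Ccnb2 may be shared with a copy, Ccnb2-ps, and Ccna2 overlaps Exosc9 on the opposite strand over 14.6% of its exon length. Smaller overlaps touch Cdc20 (2.84%, Elovl1), Cdc25b (2.47%, Spef1) and Top2a (1.35%, SNORA32).

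Among the Polo and Aurora kinases and their partners, 4 of 6 were lower. Beside Plk1 these were Aurka, the kinase of spindle poles (-1.06), Tpx2, which activates it (-0.65), and Incenp, the scaffold of the chromosomal passenger complex (-0.77). The kinase of that complex, Aurkb, differed by -0.30, and its survivin subunit, Birc5, by -0.43. In the spindle assembly checkpoint 4 of 5 genes were lower. Mad2l1, which encodes MAD2, differed by -1.11, Bub3 by -0.79, Bub1 by -0.74 and Bub1b by -0.65, whereas the kinase Ttk differed by -0.38. Against the control shRNA libraries on one scale, 2 of the 5 were lower, Mad2l1 and Bub1b, while Bub3 stood at -0.50 and Bub1 at -0.24.

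In the centromere and kinetochore group 1 of 6 genes was lower, Cenpa. The microtubule-binding NDC80 complex was represented by Ndc80 (0.04, interval -0.06 to 0.14), Spc25 (-0.10) and Nuf2 (-0.46). The kinesin Cenpe differed by -0.26 and Cenpf by 0.39. The value of Cenpf depended on the control: its CPM was 175 in WT, 229 at Tc 2D and 299 and 330 in the control shRNA libraries, so Tc 2D lay above WT and below the ZHBTc4 cells. That the kinetochore group differs from the other roles was not tested, since genes are not replicates of the condition.

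All 4 spindle motors and microtubule binders were lower, namely Nusap1, Kif2c, a microtubule-depolymerizing kinesin (-1.05), Kif11, the motor that pushes the spindle poles apart (-0.90), and Hmmr (-0.71). Against the control shRNA libraries on one scale, 2 of these 4 were lower, Nusap1 and Kif2c, while Kif11 stood at -0.52 and Hmmr at -0.20. In the central spindle and cytokinesis group, Prc1, a bundler of antiparallel microtubules (-0.79), and Ect2, an activator of the GTPase RhoA (-0.64), were lower. Kif20a (-0.45), Kif23 (-0.40) and Anln (-0.03), which builds the contractile ring, did not pass the threshold. Kif20a overlaps Cdc23 on the opposite strand over 32.3% of its exon length. Top2a, the most abundant of the 37 mRNAs in reads, measured 876 CPM in the WT library, 751 after 3 and 596 after 4 days of OHT, 419 after Tc, 806 and 1010 with the control shRNA and 766 and 847 with the linc1253 shRNA. Its difference at Tc 2D was -1.06 (-1.10 to -1.03).

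**Figure D2:**
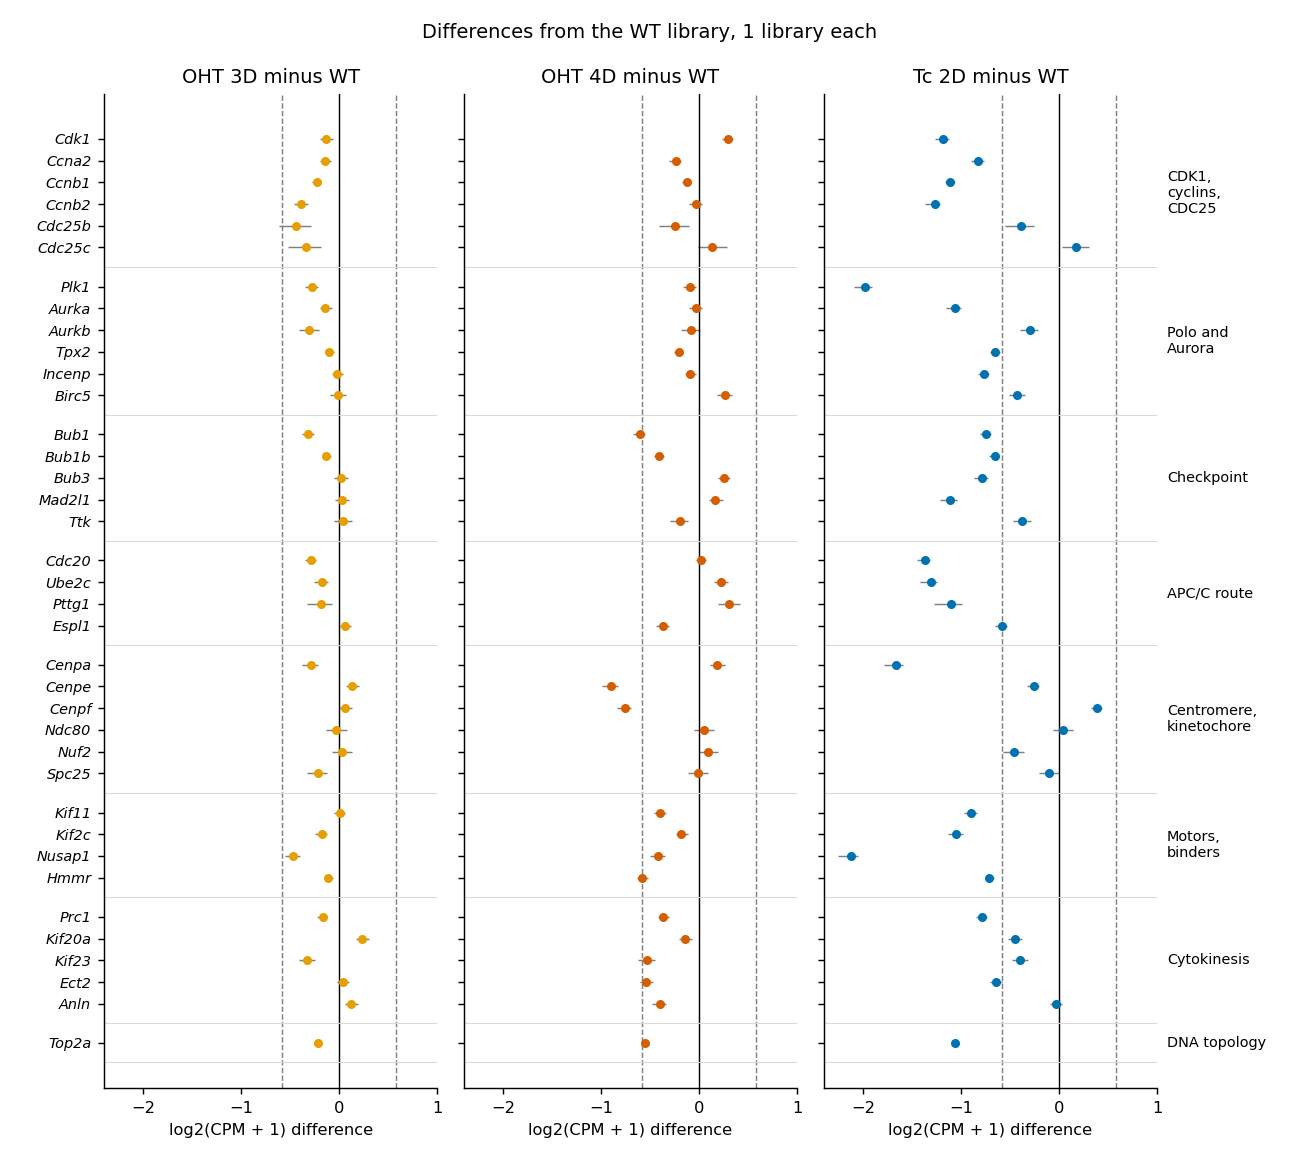
Difference from the WT library in log2(CPM + 1) for each of the 37 genes, 1 library each. Bars are 95% intervals that cover the counting of reads alone, and dashed lines mark -0.58 and 0.58. No gene passes a dashed line at OHT 3D, 3 pass the lower line at OHT 4D and 24 pass it at Tc 2D. Of all genes tested, 5.88%, 8.89% and 25.8% were past the lower limit in these libraries. Past the upper limit were 6.01%, 6.48% and 23.9%.

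Against ZHBTc4 cells, the number of genes lower at Tc 2D depended on the scale. With both tables as deposited, 27 of the 37 were lower than the mean of the control shRNA libraries, against 28.7% of all genes. On one median-ratio scale with the control shRNA libraries, 20 of the 37 genes were lower and 0 higher, against 22.1% of all genes and 29.0% of genes at or above the lowest member's WT level lower, and the median was -0.59 against 0.02 for all genes. Bub1, Hmmr, Prc1 (-0.35), Ect2 (-0.39), Bub3, Kif11 and Espl1 (-0.53) were lower than in WT but did not pass the threshold here, whereas Birc5 (-0.68), Nuf2 (-0.59) and Kif20a (-0.73) passed it here but not against WT. Tc 2D lay below both control shRNA libraries for 35 genes as deposited, the exceptions being Cdc25c and Cenpe, and for 33 on one scale. Over all genes it did so for 52.3% and 43.8%, and over genes at the members' level for 68.9% and 58.7%. It was the lowest of the 8 libraries on one scale for 26 members (70.3%), beside 31.8% of all genes and 46.4% of genes at their level. The largest differences on that scale were those of Pttg1 (-1.66), Nusap1 (-1.58), Cdk1 (-1.35), Plk1 (-1.12), Cenpa (-1.12) and Mad2l1 (-1.09). The control libraries carry a lentivirus, had 4 days of infection and were sequenced on another instrument model, so these differences from Tc 2D cannot be told apart from its treatment. Both tables were normalized separately by the authors.

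The CPM of Tc 2D summed to 638591, against 798811 in WT, and the choice of scale moved the count. With each library divided by its own total, all genes shifted by a median of 0.24, 13 members were lower and 1, Cenpf, was higher, while 16.4% of all genes were lower and 35.4% higher. Relative to the median of all genes, the members' median was -0.66 on that scale and -0.69 on the authors' scale. Under each of the 10 settings that kept the threshold of 0.58, the main one included, 13 genes were lower: Cdk1, Ccnb1, Ccnb2, Plk1, Aurka, Mad2l1, Cdc20, Ube2c, Pttg1, Cenpa, Kif2c, Nusap1 and Top2a. Changes of the filter could not alter these calls, since the lowest CPM of any member was 21.6. Other pseudocounts left the count at 23 or 24.

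Pontin depletion was accompanied by smaller differences. At OHT 3D, 0 of the 37 genes passed the threshold in either direction, against 6.01% of all genes higher and 5.88% lower. Among genes at or above the lowest member's WT level, 1.17% were higher and 4.33% lower. The members' log2 differences from WT ran from -0.47 for Nusap1 to 0.23 for Kif20a, with a median of -0.14, and 26 of 37 lay below 0 (70.3%, beside 52.4% of all genes and 58.3% of genes at their level). The median of all genes was -0.02. For comparison, the pair of control shRNA libraries, which differ by no treatment, differed by a median of 0.13 in absolute value over the 37 genes and by at most 0.37. In the checkpoint group and in the cytokinesis group 3 of 5 genes lay above WT after 3 days of OHT, and in the kinetochore group 3 of 6. The 6 genes of the CDK1 group ran from -0.13 for Cdk1 to -0.44 for Cdc25b (33.6 CPM without and 24.6 CPM with 3 days of OHT).

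At OHT 4D, 3 of the 37 genes were lower and 0 higher, against 8.89% of all genes lower and 6.48% higher, and 9.75% and 0.989% of genes at that level. These were Cenpe, Cenpf and Bub1. Cenpe (ENSMUSG00000045328, chr3:134875527-134936504), a kinesin that carries chromosomes to the spindle equator, measured 176 CPM in the WT library, 194 after 3 and 93.8 after 4 days of OHT, 147 after Tc, 136 and 175 with the control shRNA and 141 and 177 with the linc1253 shRNA. OHT 4D was the lowest of the 8, with a log2 difference of -0.90 from WT (-0.99 to -0.83), and the control shRNA pair differed by 0.37. Cenpf (ENSMUSG00000026605, chr1:191464478-191511965) measured 175 CPM in the WT library, 183 after 3 and 103 after 4 days of OHT, a difference of -0.76 (-0.84 to -0.69). The checkpoint kinase Bub1 (ENSMUSG00000027379, chr2:127626858-127657601) measured 235 CPM in the WT library, 188 after 3 and 154 after 4 days of OHT, a difference of -0.60 (-0.67 to -0.55). Just outside the threshold stood Hmmr, measuring 286 CPM without and 191 CPM with 4 days of OHT and a difference of -0.58 (-0.63 to -0.52). With libraries divided by their totals, 2 genes were lower, Cenpe and Cenpf.

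The members' differences at OHT 4D followed the length of the genes. Over the 37 genes, Spearman's rho between the difference from WT and exon length was -0.811 (Pearson's r -0.797). Over all 13447 genes tested with a length, rho was -0.383. That set includes genes below the members' level, and rho was not computed for genes at their level alone. Both values are descriptions across genes of the same 2 libraries, and genes are not independent replicates. The 12 shortest members (1.54 to 2.60 kb of exon) had a median difference of 0.11, and 9 of them lay above 0. The 12 longest (4.35 to 11.4 kb) had a median of -0.47, and 0 lay above 0. At OHT 3D the same groups had medians of -0.19 and -0.05, and rho was 0.334.

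Among the short members, Pttg1 stood at 0.30, Bub3 at 0.25, Ube2c at 0.22 and Cenpa at 0.18 relative to WT at OHT 4D. Cdk1 at 0.29 and Birc5 at 0.26 have longer exon models, of 3.44 and 3.41 kb. Among the long members, Top2a stood at -0.55, Ect2 at -0.54, Kif11 at -0.40, Anln at -0.40, Espl1 at -0.37 and Prc1 at -0.37. The same direction was seen beyond the members: of genes at or above the lowest member's WT level, the 1348 no longer than the 12 shortest members had a median of 0.17 at OHT 4D, and the 2643 no shorter than the 12 longest had -0.26. When the median of genes of like exon length was subtracted, an alternative chosen after seeing the data, 1 member stayed past the threshold at OHT 4D, Cenpe at -0.67, while Bub1 was at -0.56 and Cenpf at -0.37. The part of RNA quality or fragment length in this pattern was not tested.

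**Figure D3:**
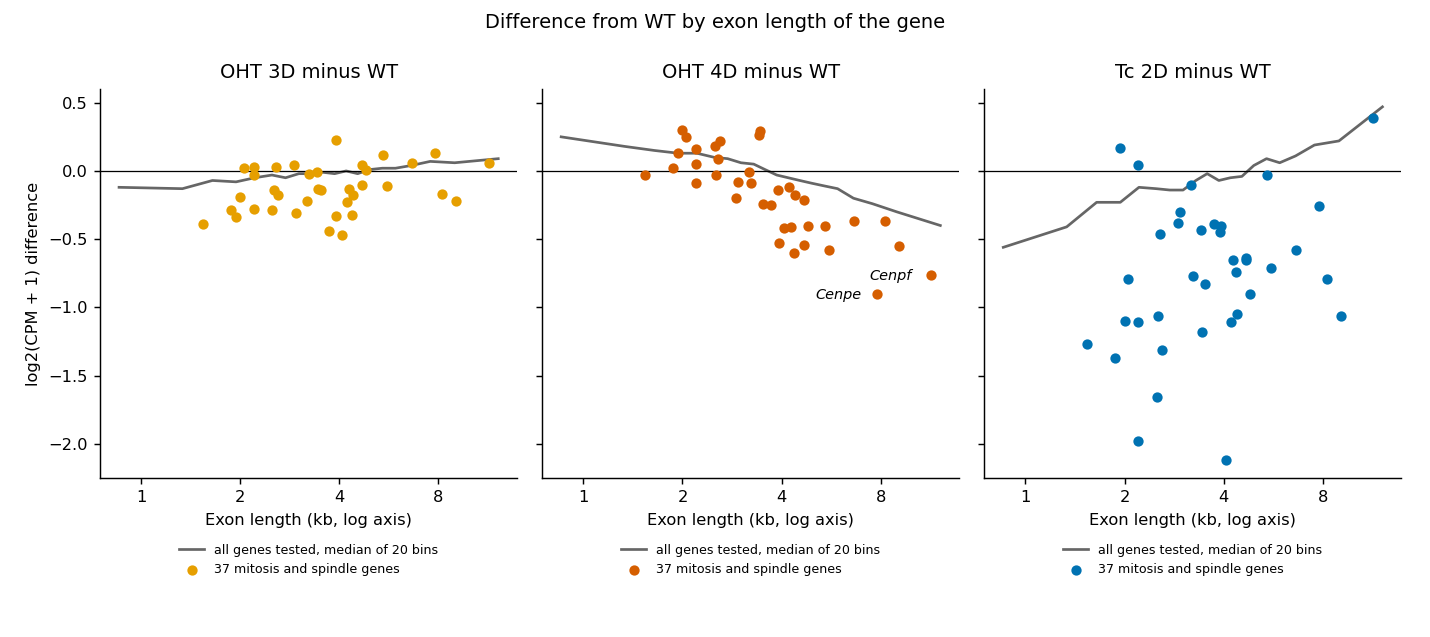
Difference from WT in log2(CPM + 1) against the exon length of the gene (kb, log axis) in the 3 depleted libraries. Points are the 37 genes and the grey line joins the medians of all genes tested in 20 equal bins of length. At OHT 4D the points fall with length, and so does the line.

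Against OHT 3D, OHT 4D was lower by more than 0.58 for 2 genes, Cenpe (-1.04) and Cenpf (-0.82), and higher for 0. Over all genes 8.84% were lower and 5.47% were higher. All 12 of the shortest members were higher after 4 than after 3 days, with a median of 0.27. Of the 12 longest, 1 was higher, Kif2c, by 0.00, and their median was -0.42. Other genes shifted in the same way. Of genes at or above the lowest member's WT level, the 1348 no longer than the 12 shortest members had a median of 0.32. The 2643 no shorter than the 12 longest had -0.25. At Tc 2D rho was 0.271 for the members, and 24 members were again counted as lower after subtraction of the length medians. Those medians came from all genes tested. Among genes at or above the lowest member's WT level, the 1348 no longer than the 12 shortest members had a median of -0.62 at Tc 2D. The 2643 no shorter than the 12 longest had -0.15, while the 12 shortest and 12 longest members had -1.11 and -0.68. The part of length in the Tc 2D differences was not tested.

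Knockdown of linc1253 was compared in 2 libraries against 2. With limma and no block for replicate number, 0 of the 37 genes passed an adjusted p of 0.05 in either direction. Neither did any of the 13407 genes tested (0% higher and 0% lower). At an unadjusted p of 0.05, 496 of all genes were higher and 503 lower, and 0 members. The edgeR quasi-likelihood test called 0 genes, whereas the edgeR exact test called 38 higher and 42 lower and DESeq2 22 and 28, with 0 members in each. The members' log2 fold changes ran from -0.22 for Nusap1 to 0.11 for Cdc25b, with a median of -0.04.

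The smallest adjusted p among the members in limma without the block was that of Nusap1, at 0.707 (0.00874 with the block). Its CPM was 119 and 133 with the control shRNA (mean 126 ± 10.1, SD, n = 2) and 100 and 115 with the linc1253 shRNA (108 ± 10.8, n = 2). The groups did not overlap, but the log2 fold change of -0.22 (SE 0.111) had a 95% interval of -0.49 to 0.04. Bub1 had a CPM of 174 and 204 with the control shRNA and 156 and 176 with the linc1253 shRNA, which overlap, and a fold change of -0.18 (-0.46 to 0.10). Cenpe, the member with the widest interval, had a fold change of 0.03 (-0.36 to 0.42). Cdk1 had 206 and 219 against 193 and 195, with -0.13 (-0.33 to 0.08). These intervals, not the missed threshold, give the size of change that the 4 libraries leave possible in limma without the block. With the block the SE for Nusap1 was 0.054.

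Both linc1253 libraries lay below both control libraries for 9 members, above both for 2, and overlapped for 26. Over all genes tested 19.2% lay below and 18.8% above in this way. The labels do not say whether the libraries of a group came from separate cultures, so p-values may measure technical spread alone.

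**Figure D4:**
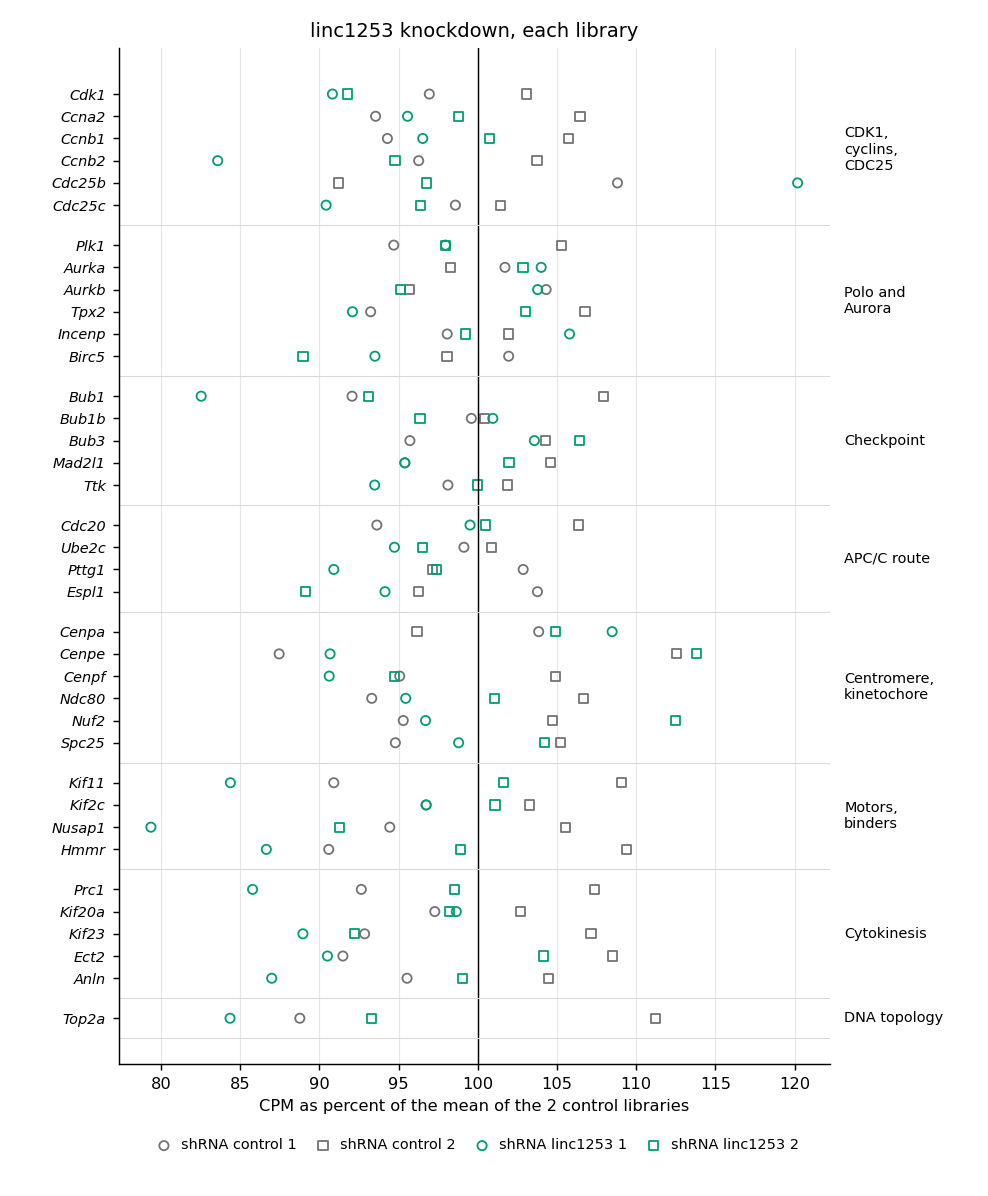
CPM of each shRNA library as a percentage of the mean of the 2 control libraries, for each of the 37 genes. Grey marks are control and green marks linc1253 libraries, circles are replicate 1 and squares replicate 2. The groups overlap for 26 genes.

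Pontin ChIP-seq reads were counted from 2.5 kb before to 500 b after the start of each gene, scaled to the 17185883 GFP and 40729076 Pontin reads, and compared as a log2 ratio of Pontin to GFP. Reads beyond the first at a position and strand made up 19.3% of the GFP and 11.4% of the Pontin library. The 37 promoters had a median ratio of 0.44. All 21186 promoters with reads in both had a median of 0.34, the 5633 of genes at or above the lowest member's WT level 0.49, and the 4969 of genes at 0 CPM in WT 0.05. Pooled over the 37 promoters, 3275 Pontin and 1041 GFP reads gave 0.41 (95% counting interval 0.31 to 0.51). A ratio above 1 was seen at 8 of the 37 (21.6%), against 17.9% of promoters of genes at their level and 14.5% of all. With 1 library per antibody there is no test, and the members were near other genes of their level.

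Single promoters held few reads. The counting interval lay above 0 for 10 members (27.0%) and below 0 for 1, beside 26.1% and 6.15% of all promoters and 38.2% and 2.57% of promoters of genes at their level. Aurkb had 119 Pontin and 17 GFP reads, a ratio of 1.56 (0.82 to 2.39). Cdc25c had 98 and 15 (1.46, interval 0.67 to 2.35), Ndc80 94 and 15 (1.40, 0.61 to 2.30) and Cdk1 90 and 16 (1.25, 0.47 to 2.11). The ratio of Nuf2 was 2.53 (1.34 to 4.02) from 82 Pontin and 6 GFP reads. These high ratios went with low GFP counts: the median member had 28.0 GFP reads. At the other end stood Pttg1, with 75 Pontin and 53 GFP reads and a ratio of -0.74 (-1.27 to -0.21), and Espl1 and Bub3 at -0.18 and -0.16. With all ratios rescaled so that the median promoter was at 0, the members' median was 0.10. The 2 members with at least 50 GFP reads had a median of -0.46, and all promoters with as many had -0.62.

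**Figure D5:**
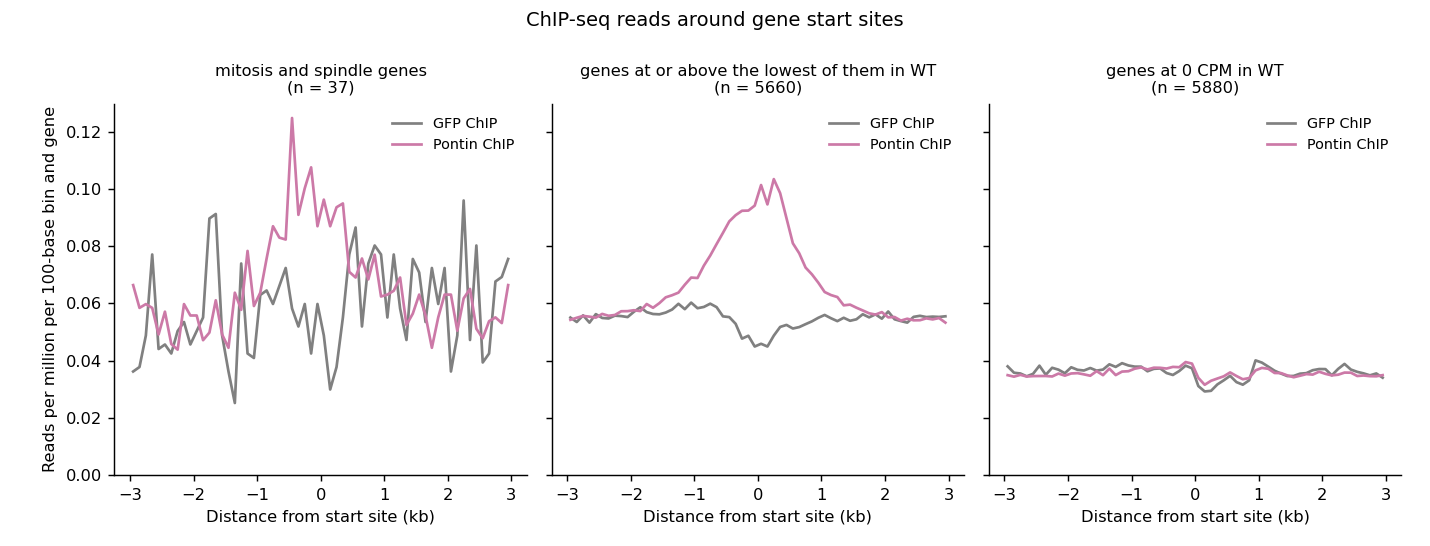
GFP and Pontin ChIP-seq reads, scaled to library size, per 100-base bin and gene within 3 kb of the start site, for the 37 genes, for genes at or above their lowest WT level and for genes at 0 CPM in WT. In the first and second panels the Pontin line rises over the GFP line near the start site, and in the third the lines run together.

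Of 94 other mitosis genes (condensins, cohesins, further kinetochore proteins and kinesins), 26 were lower and 0 higher at Tc 2D, with a median of -0.33. The share lower, 27.7%, was near that of all genes (25.8%) and below that of genes at the members' level (35.7%). Named by the size of the difference, they were Cenpw (-2.11, from 18.2 to 3.45 CPM), Cdca2 (-1.70) and the CDK-binding Cks2 (-1.61). Whether the 37 and the 94 differ was not tested. Of the 94, 34 were lower and 3 higher than the control shRNA libraries as deposited (36.2% lower, beside 28.7% of all genes). On one scale 18 were lower and 4 higher (19.1% lower, beside 22.1% of all genes). At OHT 4D, 9 of the 94 were lower, led by Aspm (-0.99), Kntc1 (-0.94) and Casc5 (-0.90), and 0 were higher, a share of 9.57% lower beside 8.89% of all genes. At OHT 3D 1 was lower, Fam64a (-0.87). Of 15 subunits and activators of the anaphase-promoting complex, 2 were lower at Tc 2D (13.3%), Anapc13 (-1.08) and Fzr1 (-0.84), with a median of -0.29, beside the 4 of 4 for the genes of its route above. Against the control shRNA libraries, 6 of the 15 were lower as deposited and 2 on one scale, beside 28.7% and 22.1% of all genes. Of the 4 route genes, 4 were lower as deposited and 3 on one scale.

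The factors known to act on CHR and CCAAT elements were mixed. Of 15 regulators tested, 4 were lower at Tc 2D (26.7%, beside 25.8% of all genes) and 1 was higher (6.67%, beside 23.9%). Against the control shRNA libraries 6 of the 15 were lower, both as deposited, beside 28.7% of all genes, and on one scale, beside 22.1%. Mybl2, which encodes B-MYB, measured 1012 CPM in the WT library, 924 after 3 and 989 after 4 days of OHT, 331 after Tc, 929 and 911 with the control shRNA and 879 and 959 with the linc1253 shRNA. Tc 2D was the lowest of the 8 libraries, at a log2 difference of -1.61 from WT. The DREAM subunit E2f4 differed by -1.25, the NF-Y subunit Nfyb by -1.14 and the histone chaperone Rbbp4 by -0.91, whereas the CHR-binding subunit Lin54 differed by 0.84. Foxm1, a forkhead activator of late cell cycle genes, measured 82.2 CPM in WT and 83.8 with Tc, a difference of 0.03. The other 9 lay between -0.57 for Tfdp1 and 0.34 for Rbl1: Nfya at -0.45, Lin52 at -0.29, Nfyc at -0.05, Lin37 at 0.00, E2f5 at 0.11, Lin9 at 0.16 and Rbl2 at 0.23. Of the 15, 0 passed the threshold at either OHT time point.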

How the data were processed

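For the mRNA libraries, the authors used TopHat on NCBIM37, HTSeq for counting and TMM in edgeR, and deposited CPM values in 2 tables. Within 0.01 read, 100% of CPM values were whole multiples of 1 read, so reads were recovered. ChIP-seq reads were aligned with Bowtie2. The deposited ChIP-seq files hold 1 line per read with a mapping quality score, and all of these reads were used. Symbols were matched for 22337 of 22713 IDs. Members and lists were chosen with earlier results of these data known. Differences are in log2(CPM + 1), called above 0.58 in absolute value, as in the study. The named genes are the 37 members, all regulators, and at most 3 genes per other list by size of difference at a mean CPM of at least 5. For linc1253, limma 3.58.1 with trend and Benjamini-Hochberg adjustment was used, with edgeR 4.0.16 and DESeq2 1.42.0 on recovered reads as alternatives. Intervals for single libraries and ChIP-seq are 95% exact binomial ones and cover counting error only, and those for linc1253 are 95% limma intervals from the spread between libraries. Exon lengths come from merged exons of the NCBIM37 annotation, and promoter sequences from RefSeq. Other scalings, pseudocounts, filters, limits, tools and controls were tried. Statistics were tested on simulated data. Python 3.11.15 and R 4.3.3 were used.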

Additional observations from a re-analysis of the deposited data

Results flagged for a closer look

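For 8 of the 37 genes the counting intervals lay on opposite sides of 0 at OHT 3D and OHT 4D, each against the same WT library. This was a share of 21.6%, beside 13.1% of all genes tested and 23.8% of genes at or above the lowest member's WT level. With 1 library per time point the difference was not tested. The differences of OHT 4D from OHT 3D were 0.49 for Pttg1, 0.48 for Cenpa, 0.42 for Cdk1 and 0.40 for Ube2c, which were below WT at OHT 3D and above it at OHT 4D. They were -0.37 for Kif20a, -0.44 for Espl1, -0.53 for Anln and -1.04 for Cenpe, which went the other way. The exon models of the genes that went up measure 2000 bases for Pttg1, 2503 for Cenpa, 2600 for Ube2c and 3445 for Cdk1. Those that went down measure 3893 for Kif20a, 5421 for Anln, 6630 for Espl1 and 7813 for Cenpe. The part of length-dependent recovery of RNA in these differences was not tested.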

How the results depend on the processing

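Of the 24 genes lower at Tc 2D, 13 were counted with library-size scaling, with 1 higher, and 13 at a limit of 1. Over all genes, 16.4% were lower and 35.4% higher with that scaling. At a limit of 1, 12.6% were lower, beside 25.8% in the main setting. Of the 3 lower at OHT 4D, 0 were counted at a limit of 1 and 1 after the correction for exon length. The shares of all genes lower were 1.61% and 6.21%. Of the 2 lower at OHT 4D against OHT 3D, 1 was counted at a limit of 1 and 1 after that correction, beside 1.95% and 5.38% of all genes. The correction was chosen after seeing the data. After linc1253 knockdown, the number lower rose from 0 to 2 in limma with the replicate block, Nusap1 (adjusted p = 0.00874) and Bub1 (adjusted p = 0.0267), and to 4 in edgeR with the block. These counts stood beside 7.66% and 10% of all genes lower. Deviations of same-numbered libraries correlated at 0.673 over all genes and at 0.808 over the 37 members. With 2 pairs and no label tying the numbers to a culture or day, what same-numbered libraries share is not known. Leaving out each shRNA library in turn, with the lone library assumed to vary like the other group, left the count at 0 and the median between -0.11 and 0.02. The median Pontin to GFP ratio of 0.44 became 0.10 with median-ratio scaling and -0.46 for the 2 members with at least 50 GFP reads. The median of all promoters moved from 0.34 to 0.00 and -0.62. Promoters with both motifs fell from 21 to 11 on the given strand alone, and those with a CCAAT box from 23 to 15. Median-ratio scaling of the ChIP-seq ratios subtracts the median of all promoters, and the given-strand count leaves out matches on the other strand. The causes of the other shifts were not tested. The other counts over all 37 genes, under the alternatives run for each, stayed within 1.5 times of those reported, and no called difference changed sign. OHT 4D against OHT 3D was not run with a pseudocount of 0.5 or other filters. Single libraries limit the OHT, Tc and ChIP-seq values, and GFP depth the ChIP-seq ratios. Use of strand in counting was not stated.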

Other observations

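Of 47 genes that license origins, unwind and copy DNA or supply its building blocks, 26 were lower than in WT at Tc 2D and 1 higher, with a median log2 difference of -0.69, beside -0.06 for all genes tested and -0.35 for genes at or above the lowest mitosis member's WT level. The shares were 55.3% lower and 2.13% higher, beside 25.8% and 23.9% of all genes and 35.7% and 7.36% of genes at that level. Against the ZHBTc4 control shRNA libraries on one scale, 21 of the 47 were lower (44.7%), beside 22.1% of all genes. The polymerase subunit Pola1 measured 197 CPM in WT and 69.7 with Tc (-1.48), the ligase Lig1 348 and 140 (-1.31), and cyclin E1, Ccne1, 240 and 104 (-1.20). At OHT 3D 0 of the 47 passed the threshold. At OHT 4D 2 were lower, Pole (-0.80) and Pola1 (-0.60).

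Among 7 CDK inhibitors, 1 was higher and 1 lower at OHT 3D, 2 were higher at OHT 4D and 2 at Tc 2D. Over all genes 6.01% were higher and 5.88% lower at OHT 3D, 6.48% were higher at OHT 4D and 23.9% at Tc 2D, the last near the 28.6% of this list. The ZHBTc4 control shRNA libraries gave another picture for Tc 2D. As deposited, 2 of the 7 were higher and 3 lower, beside 18.3% and 28.7% of all genes. On one scale 3 were higher and 3 lower, beside 24.2% and 22.1%. Cdkn1b, which encodes p27, measured 32.4 CPM in the WT library, 18.1 after 3 and 28.2 after 4 days of OHT, and differed by -0.80 at OHT 3D. Cdkn2a measured 7.33 CPM without and 14.0 CPM with 4 days of OHT, a difference of 0.85. After linc1253 knockdown Cdkn1c had a CPM of 87.1 and 67.4 against 50.5 and 37.6 in the controls, and no gene passed an adjusted p of 0.05 in limma without the replicate block.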
